A study of Mus musculus with 27 samples.

Results

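The comparison described here is between zone 2 and zone 3 of the liver lobule in mice at day 8 of pregnancy (8 days post coitum, dpc8), with 3 RNA sequencing libraries of each zone. Areas of 2 mm2 of each zone were cut by laser microdissection from frozen liver sections 5 µm thick, and 50 ng of RNA from them was sequenced after removal of ribosomal RNA. The animals of all groups used here were female wild-type C57BL/6 mice (the substrain C57BL/6N by the study's methods), either non-pregnant (NP) or at dpc8 or dpc16. They were 8 to 14 weeks old by those methods, while the study's reporting summary gives 8 weeks to 12 months for its mice. Those that were pregnant carried 6 to 12 pups. The members of the comparison are all genes with a level of at least 1 FPKM (a measure of RNA level in which the sequenced fragments of a gene are divided by its transcript length and by the depth of the library) in 3 or more of the 6 libraries, which are 11141 of the 21823 genes in the table (51.1%). Where the study counted stained cells, its portal and central vein zones were the 3 layers of cells next to each vein and its parenchymal zone the space between. Whether the areas cut for sequencing kept to the same limits is not given in the sources used here. The genes nearest to the limit were Kcna2 and Ggt5 inside it, with a third-highest value of 1.00007 and 1.00026 FPKM among the 6 libraries, and Ms4a6b and Kif26b outside it, with 0.999002 and 0.998742 FPKM. The filter was passed through the zone 2 libraries alone by 58 genes and through the zone 3 libraries alone by 21.

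Blood enters the liver lobule at the portal vein, flows past plates of hepatocytes and leaves at the central vein. Hepatocytes along that path differ in what they make. Those next to the portal vein (zone 1) are known for urea synthesis, amino acid breakdown and glucose production, and those around the central vein (zone 3) for glutamine synthesis and drug metabolism, while zone 2 lies between them. Wnt proteins and R-spondin 3 made by the endothelium of the central vein act on the neighbouring hepatocytes through beta-catenin, and many pericentral genes depend on that signal.

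The 6 libraries held FPKM sums of 510108 to 650820 and had 10734 to 11754 genes at 1 FPKM or more. Alb, the gene of serum albumin that marks hepatocytes, took 4.2% to 7.61% of the sum. The steps in their low values correspond to 13.35 to 27.23 M mapped reads, an estimate from the values and not a read count. The study calls the 3 libraries of a group independent experiments, and says of its experiments in general that different mice were used. The labels tie no library to an animal, so the p-values measure a spread between libraries, part of which may be technical. That spread was estimated over all 27 libraries of the 9 groups of the series, not over these 6 alone. One library stood apart: dpc8 zone 2 replicate 2, in which the 20 genes of a connective tissue and smooth muscle list summed to 7379 FPKM, against 696 to 1204 in the 5 other libraries, and 4 Y-linked genes summed to 16.1 FPKM although the mice were female, against at most 0.80. It is kept below, and medians printed for gene lists that turn sign or move by over 1.5 times without it are given both ways. Among the zone 1 libraries, whose values are shown beside some results, dpc8 zone 1 replicate 1 also stood apart, with a connective tissue sum of 5294 FPKM and a Y-linked sum of 20.5 FPKM. In bulk samples like these, fewer cells of a type and less RNA per cell cannot be told apart.

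Glul, Slc1a2 and Rhbg were among the genes higher in zone 3, and Cyp2f2, Sds and Hsd17b6 among those higher in zone 2. With limma on log2(FPKM + 1), 45 of the 11141 genes tested (0.404%) had a Benjamini-Hochberg adjusted p under 0.05, and these are called different below. Of them, 17 were higher in zone 2 (0.153% of genes tested) and 28 were higher in zone 3 (0.251%). Without the adjustment, 505 genes (4.53%) had a p under 0.05, of which 223 were higher in zone 2 (2.00%) and 282 in zone 3 (2.53%). The median log2 difference, zone 2 minus zone 3, was 0.00 over all genes tested. In all 45 called genes the 3 values of one zone lay beyond the 3 values of the other, which was also true of 14.1% of all genes tested (6.08% with zone 2 above and 8.06% with zone 3 above). The differences of the called genes ran from -5.28 for Slc1a2 to 4.76 for Cyp2f2 on the log2(FPKM + 1) scale, on which the change of weakly expressed genes is understated.

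**Figure D1:**
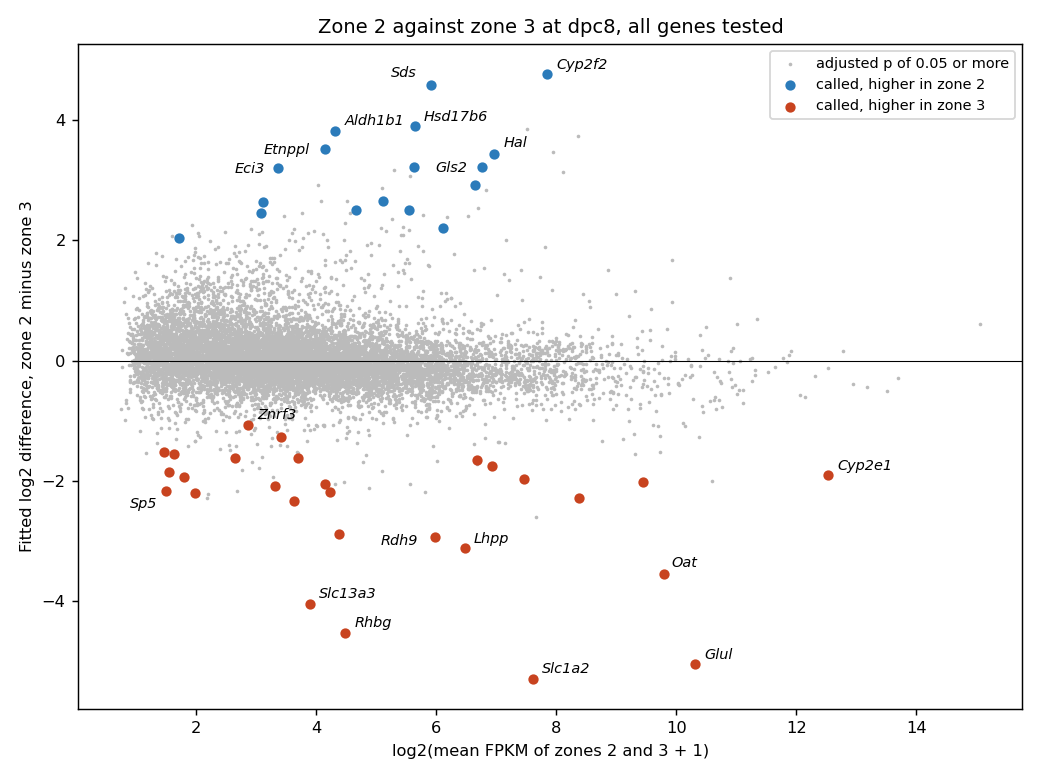
Difference between zone 2 and zone 3 at dpc8 for the 11141 genes tested. The horizontal axis is log2 of the mean FPKM of the 6 libraries plus 1, and the vertical axis the fitted log2 difference, zone 2 minus zone 3. Coloured points are the 45 genes called different, 17 above and 28 below the line at 0, and the grey points are all other genes.

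The calls depended on single libraries to an extent that differed by gene. Each of the 6 libraries was left out in turn, and 23 of the 45 genes were called in all 6 fits, 11 of them higher in zone 2 and 12 higher in zone 3. Without dpc8 zone 2 replicate 2 there were 31 called genes (0.278%), all of them among the 45, with 16 higher in zone 2 (0.144%) and 15 higher in zone 3 (0.135%). The calls that ended there include that of Sdsl, higher in zone 2, and those of Fitm1, Adgrf1, Lect2, Gstm2, Znrf3, Sult3a2, Tnfrsf19, Abcc9, Nkd1, Cyp2e1, Cyp2c39 and Blnk, higher in zone 3, with limma adjusted p-values from 0.0595 (Fitm1) to 0.274 (Blnk). Without dpc8 zone 3 replicate 3 there were 26. Libraries with the same replicate number in the 2 zones deviated together from their group means, and a fit with the replicate number as a block called 74 genes (0.664%), 22 higher in zone 2 (0.197%) and 52 higher in zone 3 (0.467%), including 44 of the 45.

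Of the 5 genes with the widest gap on the zone 3 side, 4 handle glutamate, glutamine or ammonia. Glul (chr1:153899944-153909723) encodes glutamine synthetase, which joins ammonia to glutamate and in the liver marks the hepatocytes that border the central vein. Its level was 141, 64.6 and 42.2 FPKM in the 3 zone 2 libraries and 2697, 2042 and 2621 FPKM in the 3 zone 3 libraries. Every zone 3 library was far above every zone 2 library, and the zone 2 libraries differed among themselves. The fitted log2 difference was -5.04 ± 0.43 (SE, n = 3 per zone), a 33-fold difference, with an adjusted p of 3.24e-07 by limma. In zone 1 at the same stage Glul was at 74.4, 32 and 25.7 FPKM.

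Slc1a2 (chr2:102658659-102790784), the glutamate transporter GLT-1 that brings in the substrate of that enzyme, had the widest gap of all called genes. It was at 21.9, 9.26 and 2.45 FPKM in zone 2 and 530.0, 288 and 309.6 FPKM in zone 3, a log2 difference of -5.28 ± 0.48 (SE) with an adjusted p of 4.81e-07 by limma. The zone 2 values spread widely but none came near zone 3. Rhbg, an ammonium transporter of the Rhesus family, was close to absent from zone 2, at 0.238, 1.69 and 0.928 FPKM, and lay at 36, 42 and 47.7 FPKM in zone 3 (log2 difference -4.52 ± 0.37, limma adjusted p 3.24e-07). Oat, ornithine aminotransferase, which turns ornithine towards glutamate, was abundant on both sides, at 209, 122 and 105 FPKM in zone 2 and 1653, 1435 and 1816 FPKM in zone 3. Zone 3 was again clear of zone 2 in every library, and the log2 difference was -3.54 ± 0.62 with a limma adjusted p of 0.00474.

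These 4 genes stood against 1 gene of the same pathway on the other side. Gls2, the liver glutaminase, releases ammonia from glutamine, the reverse of the step that Glul catalyses. Its level was 244, 112 and 229 FPKM in zone 2 and 31.2, 15.8 and 13.6 FPKM in zone 3, with a log2 difference of 3.22 ± 0.55 and a limma adjusted p of 0.00396. Over the 23 tested genes of a glutamine, glutamate and ammonia list, these 5 were called, 1 higher in zone 2 (0.153% of all genes tested) and 4 higher in zone 3 (0.251%). The median log2 difference of the list was -0.26, and -0.08 without dpc8 zone 2 replicate 2, where the same numbers were called.

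Carriers were called on both sides, with Slc3a1 and Sfxn1 of zone 2 described beside the amino acid enzymes. On the zone 3 side Slc13a3, a sodium-coupled carrier of dicarboxylates, was at 1.92, 0.442 and 0.184 FPKM in zone 2 and 28.2, 26 and 26.8 FPKM in zone 3. The 3 zone 3 values were nearly equal, the zone 2 values were low and uneven, and the log2 difference was -4.04 ± 0.36 (limma adjusted p 4.81e-07). Slc22a3, an organic cation transporter that carries cationic drugs and metabolites, was weak, at 0.345, 0.160 and 0.599 FPKM in zone 2 and 7.09, 3.24 and 6.11 FPKM in zone 3, with a difference of -2.2 (limma adjusted p 0.00423). It passed the filter on low values through the zone 3 libraries alone. Slc16a11, of the monocarboxylate transporter family, and Abcc9, the sulfonylurea receptor subunit of potassium channels, had differences of -2.05 and -1.26. Of these 4 genes, Slc13a3 and Slc22a3 were called in all 6 fits that left out a library, Slc16a11 in 3 and Abcc9 in 0.

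Enzymes of drug, vitamin and pigment metabolism were also among the genes higher in zone 3. Cyp2e1, the cytochrome P450 that oxidises ethanol, had the highest FPKM of the called genes, at 3549, 1925 and 2177 in zone 2 and 10617, 9487 and 7751 in zone 3. The zones did not overlap, and the log2 difference of -1.90 ± 0.41 was smaller than that of Glul (limma adjusted p 0.0361). Zone 1 had 217, 186 and 74.9 FPKM of it. The call for Cyp2e1 was kept in 1 of the 6 fits that left out a library, and without dpc8 zone 2 replicate 2 the adjusted p was 0.259.

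Gulo, which catalyses the last step of vitamin C synthesis in rodents, was at 133, 71.4 and 145 FPKM in zone 2 and 555, 489 and 589 FPKM in zone 3, a log2 difference of -2.28 that was called in every fit leaving out a library (limma adjusted p 0.000744). Blvrb, biliverdin reductase B, differed by -1.65 (zone 2 44.4, 39.3 and 64.4 FPKM, zone 3 136, 154 and 173 FPKM). Both of these genes were clear of overlap by a wide margin. Rdh9, a retinol dehydrogenase, differed by -2.94. Sult3a2, a sulfotransferase, differed by -2.88, Gstm2, a glutathione transferase, by -1.75, and Cyp2c39 by -1.62. Sult3a2, Gstm2 and Cyp2c39 have close paralogs. Only reads with a unique position were used, so reads that match a paralog equally well may be missing, and the values of these genes are uncertain. Leaving out each library in turn kept the call of Rdh9 in 4 of the 6 fits, of Sult3a2 and Gstm2 in 2 each and of Cyp2c39 in 0. Sult3a1, a close paralog of Sult3a2, had 112, 19.8 and 60.8 FPKM in zone 2 and 424, 192 and 395 FPKM in zone 3 and was not called (limma adjusted p 0.173), but it was with the replicate block (1.03e-05).

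Most drug-metabolising genes were not called. Of 61 tested genes of phase I metabolism, 2 were called higher in zone 3 (Cyp2e1 and Cyp2c39, against 0.251% of all genes tested) and 1 in zone 2 (Cyp2f2, against 0.153%), with a median log2 difference of -0.52 (-0.33 without dpc8 zone 2 replicate 2). With the replicate block 6 were called higher in zone 3 (0.467% of all genes). Of 53 tested genes of phase II conjugation 2 were higher in zone 3 (Gstm2 and Sult3a2), and 4 with the block, with a median of -0.31. Without dpc8 zone 2 replicate 2 that median was -0.10, and 0 genes of either list were called higher in zone 3. Cyp1a2, which metabolises caffeine, was at 198, 305 and 507 FPKM in zone 2 and 720.4, 1057 and 1031 FPKM in zone 3, without overlap, and was not called (log2 difference -1.56, limma adjusted p 0.602). Cyp2c29 varied more between replicates than between zones, with 474, 1255 and 3825 FPKM in zone 2 and 640.0, 2307 and 3614 FPKM in zone 3.

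Among targets of Wnt signalling 4 genes were called, each higher in zone 3. Sp5, a transcription factor induced by beta-catenin, was at 0, 0.0389 and 0 FPKM in zone 2 and 2.75, 3.40 and 4.72 FPKM in zone 3 (log2 difference -2.17 ± 0.23, limma adjusted p 9.66e-06). It was listed at 0 in 2 of the zone 2 libraries, and it passed the filter through zone 3 alone. Nkd1 and Znrf3 are feedback inhibitors of the pathway, the first acting on Dishevelled and the second removing Wnt receptors from the cell surface. Znrf3 was even within each zone, at 3.55, 4.07 and 3.53 FPKM in zone 2 and 8.96, 8.81 and 8.76 FPKM in zone 3 (log2 difference -1.06, limma adjusted p 0.0441). Nkd1 was uneven within zone 3, at 2.66, 1.48 and 1.54 FPKM in zone 2 and 3.78, 8.72 and 13.5 FPKM in zone 3 (log2 difference -1.62, limma adjusted p 0.0356, and 0.0576 with the replicate block). Tnfrsf19, a receptor of the tumour necrosis factor family that Wnt induces, was at 0.0601, 0.376 and 0.545 FPKM in zone 2 and 1.53, 4.72 and 7.63 FPKM in zone 3 (log2 difference -1.93). The lowest zone 3 value of Nkd1 and of Tnfrsf19 was in replicate 1. Of these 4 genes, Sp5 was called in all 6 fits that left out a library, Nkd1 in 2, Tnfrsf19 in 1 and Znrf3 in 0.

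Of the 16 tested genes of a list of Wnt targets and feedback genes, these 4 were called higher in zone 3 (0.251% of all genes tested), and 10 had an unadjusted p under 0.05 in that direction (2.53%). Sp5 and Tnfrsf19 passed the filter through zone 3 alone, so a call of either could have no other direction. The median log2 difference of the list was -1.01. Without dpc8 zone 2 replicate 2 the median was -1.06, and 1 gene, Sp5, was called. Lgr5, a receptor for R-spondins, was at 1.03, 0.516 and 0.234 FPKM in zone 2 and 3.80, 7.49 and 8.49 FPKM in zone 3 and missed the threshold (log2 difference -2.22, limma adjusted p 0.0653). Tbx3, a repressor of transcription and Wnt target, did so too, with 7.49, 11.6 and 10.7 FPKM in zone 2 and 34.2, 51 and 54.6 FPKM in zone 3 (log2 difference -2.11, limma adjusted p 0.0556, and 0.0129 with the replicate block). Neither overlapped between the zones. Axin2, the scaffold of the complex that degrades beta-catenin, did overlap, since replicate 1 was alike in both zones (6.72, 1.04 and 2.76 FPKM in zone 2 and 6.15, 13.1 and 15.4 FPKM in zone 3, limma adjusted p 0.571). Notum, a secreted enzyme that inactivates Wnt proteins, and Rnf43, the paralog of Znrf3, had log2 differences of -1.37 and -0.95 and were not called.

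The signals themselves come from endothelial cells rather than from hepatocytes. Wnt2 was at 1.91, 1.42 and 0.429 FPKM in zone 2 and 5.73, 5.60 and 2.66 FPKM in zone 3, and Rspo3, R-spondin 3, at 1.23, 1.04 and 1.45 FPKM in zone 2 and 4.46, 4.18 and 5.23 FPKM in zone 3. Neither gene overlapped between zones. The log2 differences were -1.34 and -1.33, with limma adjusted p-values of 0.0849 and 0.0849, and 0.0193 and 0.0278 with the replicate block. They were the 2 genes with an unadjusted p under 0.05 among 11 tested ligands and endothelial Wnt signals, of which 0 were called. The median of that list was -0.05 with 3 of the 11 positive, and -0.59 with 2 positive without dpc8 zone 2 replicate 2. Their part in the hepatocyte differences was not tested.

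Lect2, a protein that the liver secretes into the blood, was at 73.1, 45.9 and 103 FPKM in zone 2 and 268, 243 and 324 FPKM in zone 3 (log2 difference -1.96, limma adjusted p 0.0094, and 0.115 without dpc8 zone 2 replicate 2). It was the 1 called gene among 23 tested growth factors and hepatokines (0.251% of all genes tested were called in this direction). The remaining genes higher in zone 3 had varied roles. Lhpp, a phosphatase, stood at 28.5, 11.9 and 15.2 FPKM in zone 2 and 163, 144 and 166 FPKM in zone 3 (log2 difference -3.11, limma adjusted p 0.000339). Fitm1, a protein of lipid droplet formation, differed by -2.33, and Nxpe2 by -2.18. Pcp4l1 differed by -2.09, Tuba8, an alpha-tubulin, by -1.84, Adgrf1, an adhesion receptor coupled to G proteins, by -1.55, and Blnk, an adaptor of B cell receptor signalling, by -1.52. Tuba8, Blnk, Tnfrsf19, Slc22a3 and Sp5 passed the filter through zone 3 alone, so that a call among them could only have this direction. Lhpp, Nxpe2 and Tuba8 were called in all 6 fits that left out a library, Lect2 and Pcp4l1 in 4, Fitm1 and Adgrf1 in 2 and Blnk in 1.

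**Figure D2:**
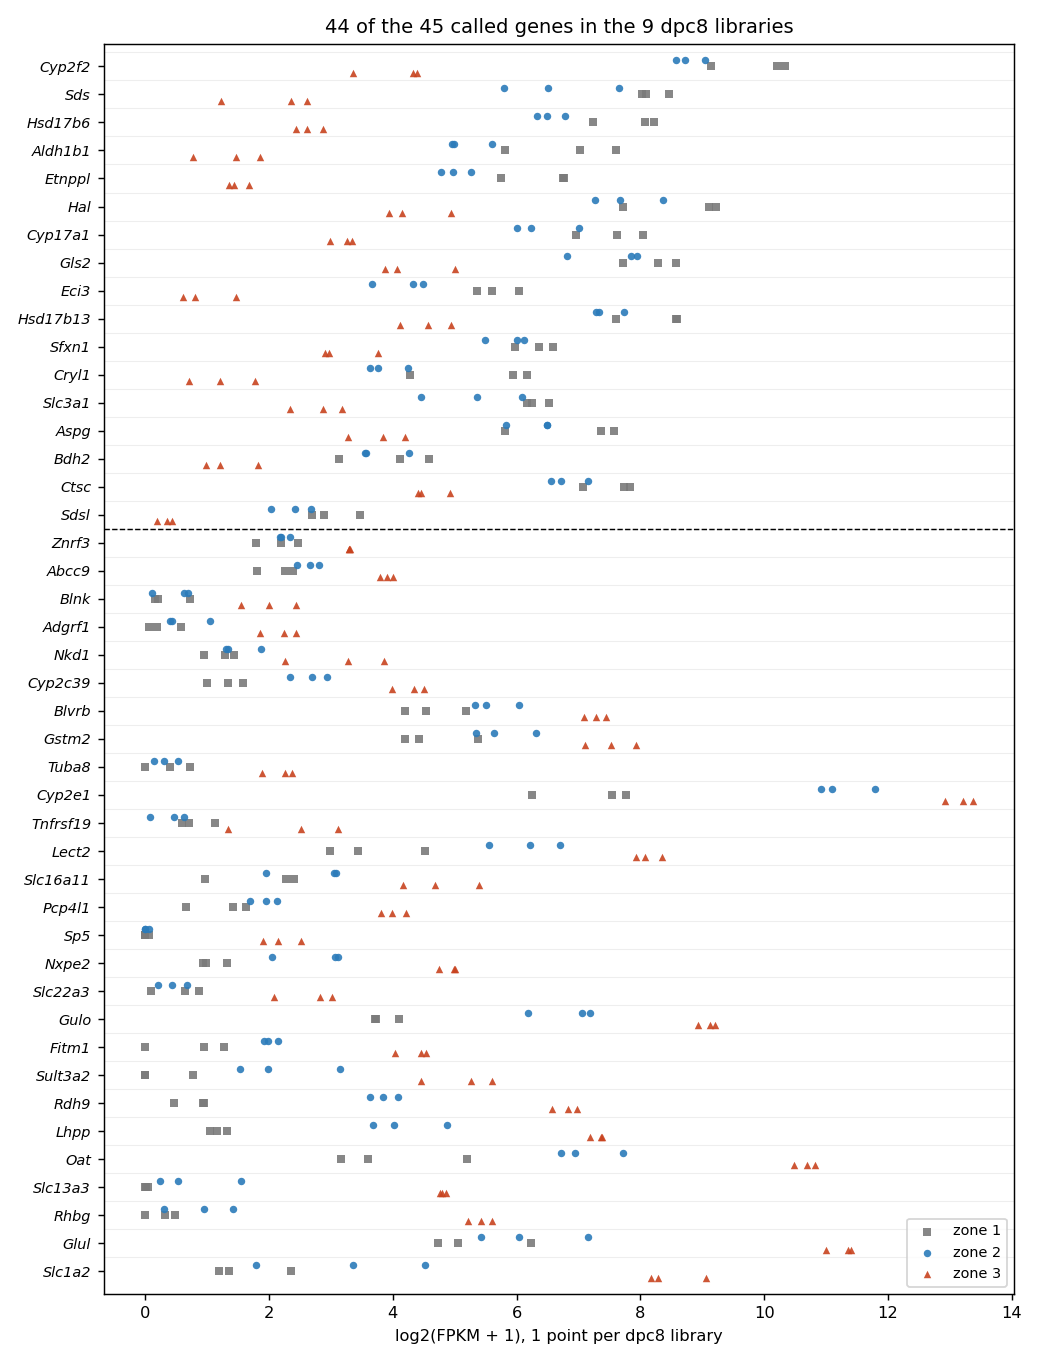
Level of 44 of the 45 called genes in each of the 9 dpc8 libraries. The horizontal axis is log2(FPKM + 1), each row is a gene, and each point is a library, coloured and shaped by zone. A dashed line parts the 17 genes higher in zone 2 from the 27 shown that were higher in zone 3, and in every row the zone 2 and zone 3 points do not overlap. Zone 1, which was not in the comparison, is shown beside them.

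The promoters of some of these genes were read for the core letters of the site bound by TCF/LEF factors, the partners of beta-catenin on DNA. The motifs searched were CTTTGAA and CTTTGAT, on both strands, in the 250 bases before the gene start as RefSeq gives it on GRCm38.p6. A window held one of them in 7 of the 23 genes higher in zone 3 that had a promoter entry (30.4%), in 2 of 13 genes higher in zone 2 (15.4%) and in 588 of 8869 genes tested (6.63%). The 7 were Slc1a2, Sp5, Lect2, Tnfrsf19, Cyp2e1, Blvrb and Cyp2c39, and the other 2 were Slc3a1 and Hal. Of the 7, Lect2, Tnfrsf19, Cyp2e1 and Cyp2c39 lost their call without dpc8 zone 2 replicate 2, and Sp5 and Tnfrsf19 passed the filter through zone 3 alone. A match is a description of the letters and not a bound site, and no test was made of these shares. These 6 windows were chosen after the matches were seen: 4 with a match from genes described above, and those of Glul and Cyp2f2, the marker genes of either side, which have none. They are written 5′ to 3′ on the strand of the gene, with the match in capitals.
Sp5, chr2:70474673-70474922, plus strand: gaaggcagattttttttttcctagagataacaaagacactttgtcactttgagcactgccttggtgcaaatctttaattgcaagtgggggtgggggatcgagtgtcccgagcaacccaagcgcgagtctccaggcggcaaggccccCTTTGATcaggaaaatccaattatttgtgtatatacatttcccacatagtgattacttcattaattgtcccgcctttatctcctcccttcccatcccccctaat
Cyp2e1, chr7:140763569-140763818, plus strand: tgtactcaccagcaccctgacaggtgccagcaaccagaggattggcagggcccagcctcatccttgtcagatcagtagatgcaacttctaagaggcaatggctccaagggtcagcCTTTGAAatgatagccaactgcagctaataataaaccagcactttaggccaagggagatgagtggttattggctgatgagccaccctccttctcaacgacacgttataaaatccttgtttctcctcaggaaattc
Lect2, chr13:56548539-56548788, minus strand: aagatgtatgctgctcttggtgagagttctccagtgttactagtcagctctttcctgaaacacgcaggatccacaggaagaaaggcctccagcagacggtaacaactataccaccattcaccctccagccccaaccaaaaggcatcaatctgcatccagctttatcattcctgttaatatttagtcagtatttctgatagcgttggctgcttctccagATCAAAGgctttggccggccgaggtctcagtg
Slc1a2, chr2:102706188-102706437, plus strand: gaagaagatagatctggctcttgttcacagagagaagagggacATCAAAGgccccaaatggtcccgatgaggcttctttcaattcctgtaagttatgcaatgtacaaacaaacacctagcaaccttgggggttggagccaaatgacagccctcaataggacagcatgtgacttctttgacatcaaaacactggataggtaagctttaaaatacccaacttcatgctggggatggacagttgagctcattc
Glul, chr1:153899679-153899928, plus strand: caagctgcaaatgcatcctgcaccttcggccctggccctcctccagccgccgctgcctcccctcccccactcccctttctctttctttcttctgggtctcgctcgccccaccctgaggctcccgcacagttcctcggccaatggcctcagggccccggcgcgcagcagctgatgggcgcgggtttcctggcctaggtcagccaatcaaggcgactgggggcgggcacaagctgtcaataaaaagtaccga
Cyp2f2, chr7:27119705-27119954, plus strand: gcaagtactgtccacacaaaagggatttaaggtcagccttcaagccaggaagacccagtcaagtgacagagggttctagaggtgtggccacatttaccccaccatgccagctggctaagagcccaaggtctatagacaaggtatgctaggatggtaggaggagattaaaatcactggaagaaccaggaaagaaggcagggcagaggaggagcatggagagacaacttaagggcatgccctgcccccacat

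In Sp5 and Cyp2e1 the motif reads along the gene's strand, with its first base at -104 and -135 from the start. In Lect2 and Slc1a2 it lies on the opposite strand, so that the capitals show its reverse complement ATCAAAG, at -32 and -207. The whole Slc1a2 window lies inside the span that GENCODE gives the gene, and the ends of the Cyp2e1 and Cyp2f2 windows reach into theirs. Where no match was found, only this window was read.

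On the zone 2 side the gene with the widest gap was Cyp2f2 (chr7:27119909-27133660), a cytochrome P450 that marks hepatocytes away from the central vein. Its level was 382, 423 and 527 FPKM in zone 2 and 9.24, 19.1 and 19.98 FPKM in zone 3. The lowest zone 2 library was far above the highest zone 3 library. The log2 difference was 4.76 ± 0.52 (SE, n = 3 per zone), a 27.1-fold difference, with a limma adjusted p of 9.66e-06. In zone 1 it was at 565, 1183 and 1296 FPKM, above zone 2 in each library.

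Several of the genes called on this side break down amino acids. Sds, serine dehydratase, turns serine into pyruvate and ammonia for glucose production. It was at 201, 54.5 and 89.7 FPKM in zone 2 and 5.15, 4.09 and 1.34 FPKM in zone 3, a log2 difference of 4.59 ± 0.60 (limma adjusted p 0.000172). The zone 2 libraries were uneven in Sds, with replicate 1 highest, and all were still well above zone 3. Sdsl, a related enzyme, was low, at 5.37, 4.34 and 3.08 FPKM in zone 2 and 0.352, 0.277 and 0.146 FPKM in zone 3 (log2 difference 2.05, limma adjusted p 0.0151), and passed the filter through zone 2 alone. Hal, histidine ammonia-lyase, the first enzyme of histidine breakdown, was at 154, 203 and 328 FPKM in zone 2 and 16.7, 29.6 and 14.4 FPKM in zone 3 (log2 difference 3.43, limma adjusted p 0.00356). Its replicates did not overlap between zones, while Uroc1, Amdhd1 and Ftcd, the next enzymes of that path, had log2 differences of 1.09, 1.62 and 1.05 and were not called.

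Aspg, which splits asparagine, stood at 88.9, 55.9 and 89.4 FPKM in zone 2 and 17.4, 13.4 and 8.65 FPKM in zone 3 (log2 difference 2.50, limma adjusted p 0.00451). Etnppl, which breaks down phosphoethanolamine, was low in zone 3, with 1.55, 2.19 and 1.69 FPKM against 26.4, 30.4 and 37.4 FPKM in zone 2 (log2 difference 3.52, limma adjusted p 0.00106). In both genes every zone 2 library lay above every zone 3 library. Sfxn1, the mitochondrial serine carrier, was at 68.7, 43.7 and 63 FPKM in zone 2 and 12.6, 6.47 and 6.81 FPKM in zone 3, with a log2 difference of 2.66 (limma adjusted p 0.00195). Slc3a1, the heavy subunit of a carrier of cystine and basic amino acids, differed by 2.50, and dpc8 zone 2 replicate 2 was its lowest zone 2 library (67.3, 20.8 and 40.1 FPKM in zone 2 and 8.04, 4.05 and 6.35 FPKM in zone 3). Of 58 tested genes of amino acid breakdown, 5 were called, each higher in zone 2 (0.153% of all genes tested), and 20 had a positive difference, with a median of -0.14. Without dpc8 zone 2 replicate 2 the median turned to 0.10, 34 were positive and 4 were called. Of the genes named here Aspg was called in 5 of the 6 fits that left out a library, Slc3a1 in 2 and Sdsl in 1, and Sds, Hal, Etnppl and Sfxn1 in all 6. Sdsl, a called member of the amino acid breakdown list, passed the filter through zone 2 alone, so its call could have no other direction. Oat, described above and called higher in zone 3, is not a member of that list.

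Enzymes of steroids, aldehydes and lipids were among the others. Hsd17b6, a dehydrogenase of steroids and retinoids, was at 79.7, 109 and 89.1 FPKM in zone 2 and 5.10, 6.34 and 4.39 FPKM in zone 3 (log2 difference 3.90 ± 0.66, limma adjusted p 0.00389). Its replicates were even on both sides. Aldh1b1, a mitochondrial aldehyde dehydrogenase, was at 30.2, 30.9 and 47.6 FPKM in zone 2 and 0.716, 2.60 and 1.75 FPKM in zone 3 (log2 difference 3.82, limma adjusted p 3.14e-05). Cyp17a1, which hydroxylates steroids, was at 73.9, 63.4 and 128 FPKM in zone 2 and 6.92, 8.57 and 9.12 FPKM in zone 3 (log2 difference 3.22, limma adjusted p 0.0138). For Cyp17a1 the call was kept in 2 of the 6 fits that left out a library. Hsd17b13, a protein of lipid droplets, was at 160.1, 155 and 213 FPKM in zone 2 and 22.8, 29.5 and 16.3 FPKM in zone 3 (log2 difference 2.91, limma adjusted p 0.00195). Eci3, an isomerase of unsaturated fatty acid oxidation, differed by 3.21, Bdh2, a hydroxybutyrate dehydrogenase, by 2.46, Cryl1, a dehydrogenase of sugar acids, by 2.64, and Ctsc, the lysosomal protease cathepsin C, by 2.2. Eci3 and Cryl1 were called in all 6 fits that left out a library, and Bdh2 and Ctsc in 3 each.

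Some called genes lie close together in the genome (mm10, GENCODE positions). Sdsl and Sds (chromosome 5, 3715 bases apart) were both higher in zone 2. Oat and Lhpp (chromosome 7, 34239 bases apart) were both higher in zone 3. Between the genes of these 2 pairs there was no other tested gene. On chromosome 10, Rdh9 was higher in zone 3 while Hsd17b6, 198238 bases away with 4 tested genes between, and Gls2, a further 186845 bases on with 6 between, were higher in zone 2. Cyp2f2 and Blvrb on chromosome 7, 314317 bases apart with 8 tested genes between, also had opposite directions.

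The known zone markers were read against the zone labels. Of 23 pericentral markers, all tested, 12 were called higher in zone 3 (0.251% of all genes tested) and 0 in zone 2, and 9 were called higher in zone 3 without dpc8 zone 2 replicate 2 (0.135%). All 23 had a negative difference, with a median of -1.99 and a range of -5.28 to -0.41, while 50.4% of all genes tested had a positive one. Their summed level was 7481, 5537 and 10335 FPKM in the zone 2 libraries and 24899, 24389 and 26435 FPKM in the zone 3 libraries. Of 20 tested periportal markers, 10 were called higher in zone 2 (0.153%) and 0 in zone 3, with a median of 2.16. Their sums were 10240.1, 5817 and 9462 FPKM in zone 2 and 5966, 4442 and 4113 FPKM in zone 3, and dpc8 zone 2 replicate 2 overlapped with zone 3. These lists hold 22 of the 45 called genes, and they were drawn up with earlier results of these data known, so their counts are a check of the labels and not independent evidence.

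Cdh1, E-cadherin, was at 1.91, 5.05 and 10.6 FPKM in zone 2 and 0.260, 0.674 and 0.174 FPKM in zone 3, without overlap and not called (log2 difference 2.12, limma adjusted p 0.131). Of the 9 genes of the urea cycle, which turns ammonia into urea, 0 were called, with a median of 0.51 (0.77 without dpc8 zone 2 replicate 2), and 3 had an unadjusted p under 0.05, each higher in zone 2 (2.00% of all genes tested). Among them were Ass1 and Asl, the enzymes that make and split argininosuccinate, with log2 differences of 0.97 and 1.11. Cps1, which makes the carbamoyl phosphate that enters the cycle, was at 1342, 536 and 1110.1 FPKM in zone 2 and 793, 428 and 397 FPKM in zone 3 (log2 difference 0.85, limma adjusted p 0.976). In the fit without the 6 libraries of the series in which 4 Y-linked genes summed to at least 5 FPKM, an alternative added after the data were seen, Asl, Ass1 and Cps1 were called higher in zone 2, with limma adjusted p-values of 0.00562, 0.0169 and 0.0235. A fit with a connective tissue covariate, added likewise, called them too. The zones of Cps1 overlapped, as replicate 1 was the highest of each. Pck1, the control point of glucose production, was at 1334, 413 and 337 FPKM in zone 2 and 1022, 297 and 129.7 FPKM in zone 3 (log2 difference 0.74, not called). Of 15 tested genes of gluconeogenesis 1 was called, Sds (0.153% of all genes tested were called in this direction). The zones of Pck1 overlapped as well, and replicate 1 again stood above the others.

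Of 8 markers of the midlobular zone, 7 were tested, 0 were called and the median difference was 0.99. Hamp, which encodes hepcidin, the regulator of iron uptake, was at 1128, 784 and 2636 FPKM in zone 2 and 307, 429 and 551 FPKM in zone 3 (log2 difference 1.67, limma adjusted p 0.976). Igfbp2, an insulin-like growth factor binding protein, was at 184, 437 and 280.5 FPKM in zone 2 and 71.6, 208 and 82.3 FPKM in zone 3 (log2 difference 1.39, limma adjusted p 0.976). The zones did not overlap in Hamp and did in Igfbp2, and neither gene was called. Ccnd1, cyclin D1, which takes cells into the cycle, came nearest to the threshold, with 61.6, 95 and 35.6 FPKM in zone 2 and 24.3, 20.6 and 8.06 FPKM in zone 3 (log2 difference 1.82 ± 0.43, limma adjusted p 0.0721). Every zone 2 library was above every zone 3 library. With the replicate block its limma adjusted p was 0.0241, and without dpc8 zone 2 replicate 2 it was 0.603. Ccnd1 was called without dpc8 zone 2 replicate 3.

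No gene of the proliferation list was called, although with all 6 libraries every tested member had a difference of the same sign. Of 47 tested proliferation genes 0 were called and 7 had an unadjusted p under 0.05, each higher in zone 2 (2.00% of all genes tested), and the median difference was 1.01. All 47 had a positive difference, against 50.4% of all genes tested, and in 20 the zones did not overlap, against 6.08% of all genes in that direction. Their summed level was 224, 336 and 200.1 FPKM in zone 2 and 173, 103 and 73.3 FPKM in zone 3, with zone 2 replicate 2 highest. Without that library the median was 0.82 and 44 were positive, against 49.4% of all genes, and 2 had an unadjusted p under 0.05 (1.63%). With the replicate block 15 did (3.21%). At the other stages, in separate libraries, the median of the same genes was -0.20 in NP and -0.17 at dpc16. Those groups also hold libraries with a raised Y-linked sum, NP zone 3 replicate 2 (7.92 FPKM) and replicate 3 of dpc16 zone 2 (23.2 FPKM) and zone 3 (16.6 FPKM), and the connective tissue median was -0.81 in NP and -0.05 at dpc16. In the fit without the 6 libraries of the highest Y-linked sums the proliferation median was 0.27 in NP and -0.28 at dpc16. Whether the list's difference varies between stages was not tested.

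Single members of the group were low and uneven. Knstrn, a protein of the mitotic spindle, was at 8.35, 5.80 and 5.14 FPKM in zone 2 and 1.62, 1.03 and 0.165 FPKM in zone 3 (log2 difference 1.99, limma adjusted p 0.519). Nusap1, another spindle protein, was the most even, at 3.22, 3.27 and 3.43 FPKM in zone 2 and 0.958, 0.484 and 0.673 FPKM in zone 3 (log2 difference 1.35, limma adjusted p 0.602). Prc1, which acts in the division of the cytoplasm, was at 10.4, 10.4 and 4.28 FPKM in zone 2 and 1.86, 3.98 and 0.156 FPKM in zone 3 (limma adjusted p 0.95). In these 3 genes zone 2 lay above zone 3 in each library. Hmmr, the hyaluronan-mediated motility receptor, was at 2.69, 3.91 and 2.26 FPKM in zone 2 and 2.03, 0.491 and 0.121 FPKM in zone 3 (log2 difference 1.18, limma adjusted p 0.949). Top2a, the topoisomerase that untangles chromosomes, was at 7.58, 12.3 and 8.62 FPKM in zone 2 and 5.24, 2.35 and 0.999 FPKM in zone 3. Of both genes, replicate 1 of zone 3 had more than the other zone 3 libraries.

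**Figure D3:**
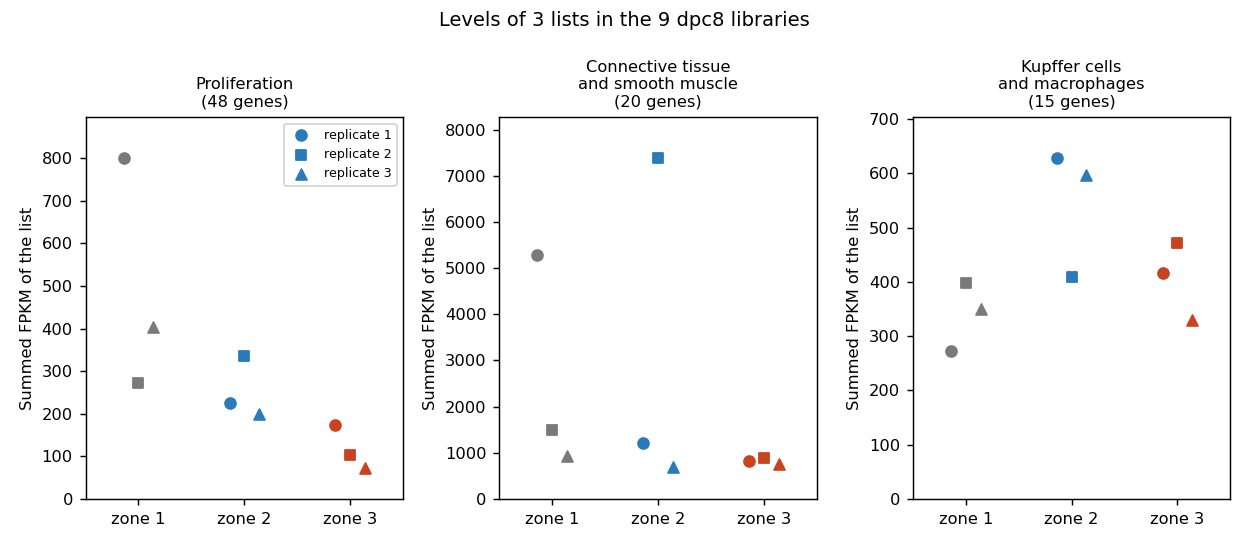
Summed FPKM of the proliferation, connective tissue and smooth muscle, and Kupffer cell lists in each dpc8 library, with 1 point per library and zones along the horizontal axis. The proliferation sums of zone 2 (200.1 to 336 FPKM) lie above those of zone 3 (73.3 to 173 FPKM), and the connective tissue sum is 7379 FPKM in 1 zone 2 library and 5294 FPKM in 1 zone 1 library.

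Markers of other cell types were read beside these results. The 15 genes of Kupffer cells, the macrophages of the liver, all had a positive difference, with a median of 0.49 and 0 called. In NP and dpc16 mice the medians were 1.36 and 1.10, and 1.22 and 1.37 without those 6 libraries. Their sums overlapped, at 628, 409.6 and 597 FPKM in zone 2 and 416, 472 and 330.4 FPKM in zone 3. Marco, a scavenger receptor of macrophages, was at 6.82, 8.21 and 8.27 FPKM in zone 2 and 1.01, 4.96 and 3.07 FPKM in zone 3, and Clec4f, a lectin particular to Kupffer cells, at 70.5, 43.1 and 73.8 FPKM in zone 2 and 34.6, 45.8 and 36.8 FPKM in zone 3. Marco did not overlap between zones and Clec4f did, and neither was called. The 16 tested connective tissue and smooth muscle genes had a median of 1.61, and of 0.47 without dpc8 zone 2 replicate 2, with 0 called in either. Sinusoidal endothelium (16 tested), vein and artery endothelium (8) and hepatic stellate cells (15) had medians of -0.33, -0.32 and -0.12, with 0 called. Without dpc8 zone 2 replicate 2 the medians were -0.08, -0.52 and 0.03. With the replicate block 1 member of the vein and artery list was called, Rspo3, as given above. Of 15 biliary markers 5 and of 19 lymphocyte and neutrophil markers 3 reached the level for testing, with 0 called. The part of these cells in the differences between zones was not tested.

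**Figure D4:**
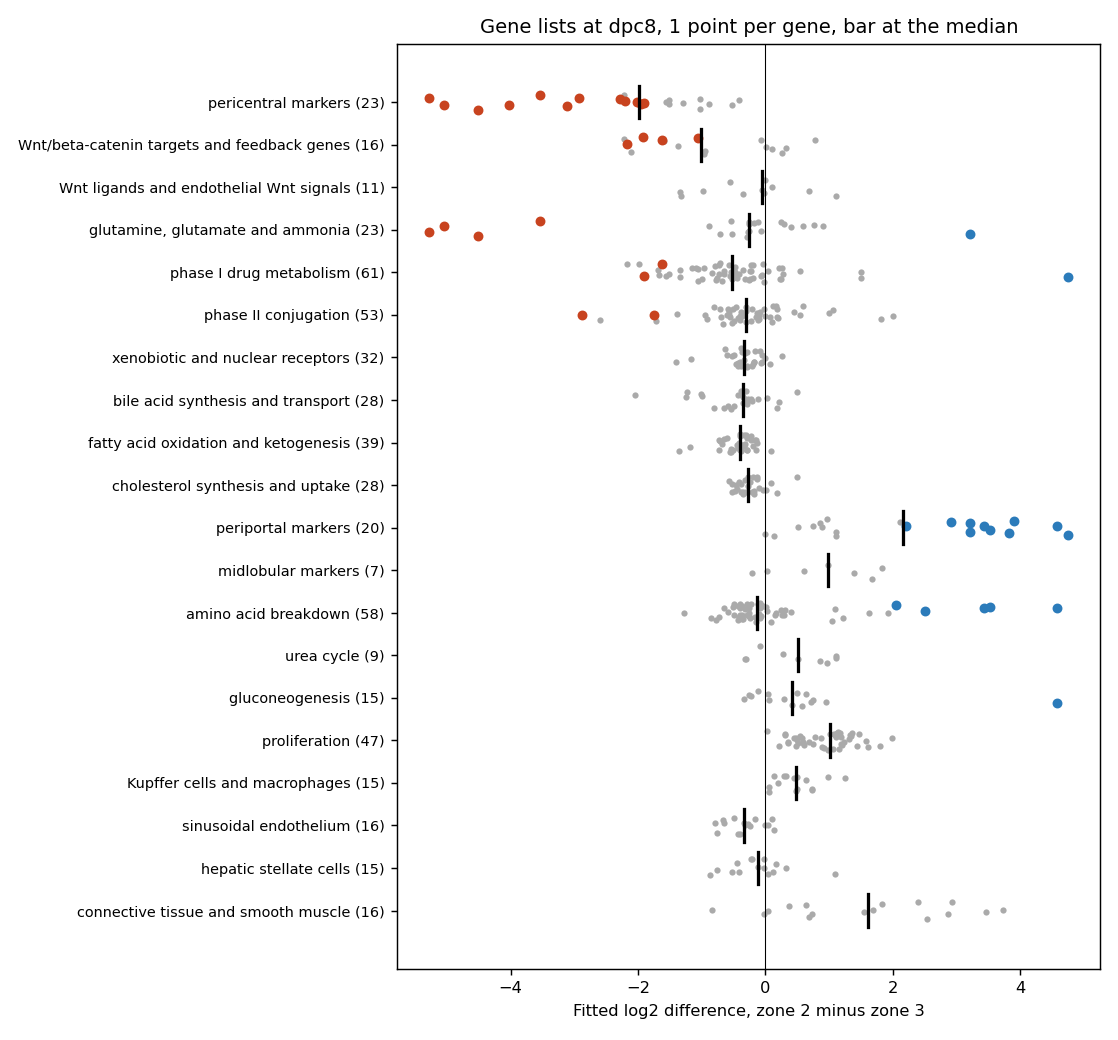
Difference between zone 2 and zone 3 at dpc8 for the tested members of 20 gene lists. Each point is a gene at its fitted log2 difference, coloured where it was called, and the bar is the median of the list. The pericentral list (median -1.99) and the periportal list (median 2.16) have the medians farthest from 0.

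The lists of fatty acid oxidation, cholesterol and bile acid genes held no called gene. Eci3 and Bdh2, described above and called higher in zone 2 (log2 differences 3.21 and 2.46), are not members of the fatty acid oxidation list. Of 39 tested genes of fatty acid oxidation and ketogenesis 0 were called, 1 had a positive difference and the median was -0.39. The median was -0.23 without dpc8 zone 2 replicate 2. For cholesterol synthesis and uptake (28 tested) the median was -0.28, and -0.01 without that library. Bile acid synthesis and transport (28 tested) had a median of -0.35 (-0.23 without it) and 0 called. Its member Slco1a1, a carrier of bile acids and other organic anions, was at 22.3, 9.47 and 21.5 FPKM in zone 2 and 91.7, 48.5 and 83.6 FPKM in zone 3, with a limma adjusted p of 0.875, and of 0.00679 with the replicate block. Of 32 tested nuclear receptors and related factors 0 were called. Ahr, the receptor of dioxin and related compounds, was at 14.2, 12.2 and 13.4 FPKM in zone 2 and 37.3, 27.5 and 28.9 FPKM in zone 3 (log2 difference -1.16, limma adjusted p 0.155, and 0.022 with the block). Pparg, a regulator of lipid storage, was at 3.91, 3.82 and 4.67 FPKM in zone 2 and 10.9, 16.6 and 11.1 FPKM in zone 3 (log2 difference -1.41, limma adjusted p 0.127). Neither gene overlapped between the zones.

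The same contrast was read in the NP and dpc16 libraries, which are separate from those of dpc8. In NP mice 51 of the 11141 genes were called (0.458%) and at dpc16 there were 60 (0.539%). All 17 genes higher in zone 2 at dpc8 were called in that direction in NP (background 0.251%), and 15 of them at dpc16 (0.206%). Of the 28 genes higher in zone 3, 18 were called in that direction in NP (0.206%) and 19 at dpc16 (0.332%). All 45 had the same sign at both other stages, as did 54.7% of all genes tested in NP and 64.9% at dpc16. At all 3 stages 27 genes were called, 15 higher in zone 2 and 12 higher in zone 3. Znrf3, Abcc9 and Slc16a11 were called at dpc8 and at neither other stage, with log2 differences of -0.80, -0.62 and -1.43 in NP and -0.77, -0.94 and -1.45 at dpc16. The stages share one estimate of the spread in this fit, so their calls are not independent of each other. Fitted to the compared groups alone, 32 genes were called in NP (22 higher in zone 2 and 10 in zone 3). At dpc16 such a fit called 10 (3 higher in zone 2 and 7 in zone 3).

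The fitted difference had another size at each stage, but in no gene did the change between stages pass the test. Cyp2f2 differed by 4.76 at dpc8, 6.95 in NP and 5.93 at dpc16. Hal differed by 3.43, 5.56 and 4.96 in the same order, and Glul by -5.04, -4.43 and -4.04. Adgrf1 had -1.55 at dpc8, -1.32 in NP and -0.12 at dpc16. The test of the change itself called 0 genes by limma for dpc8 against NP and 0 for dpc8 against dpc16 (0.00% each), with 307 (2.76%) and 151 (1.36%) at an unadjusted p under 0.05. The lowest adjusted p-values over all genes were 0.998 and 0.243. Of the 45 called genes 7 had an unadjusted p under 0.05 in each of the tests, among them Cyp2f2 against NP (0.00665 by limma, a smaller gap at dpc8) and Adgrf1 against dpc16 (0.00216 by limma). In 6 alternative fits 1 gene, Cyp2c69, passed the threshold for dpc8 against dpc16, and it was not among the 45.

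**Figure D5:**
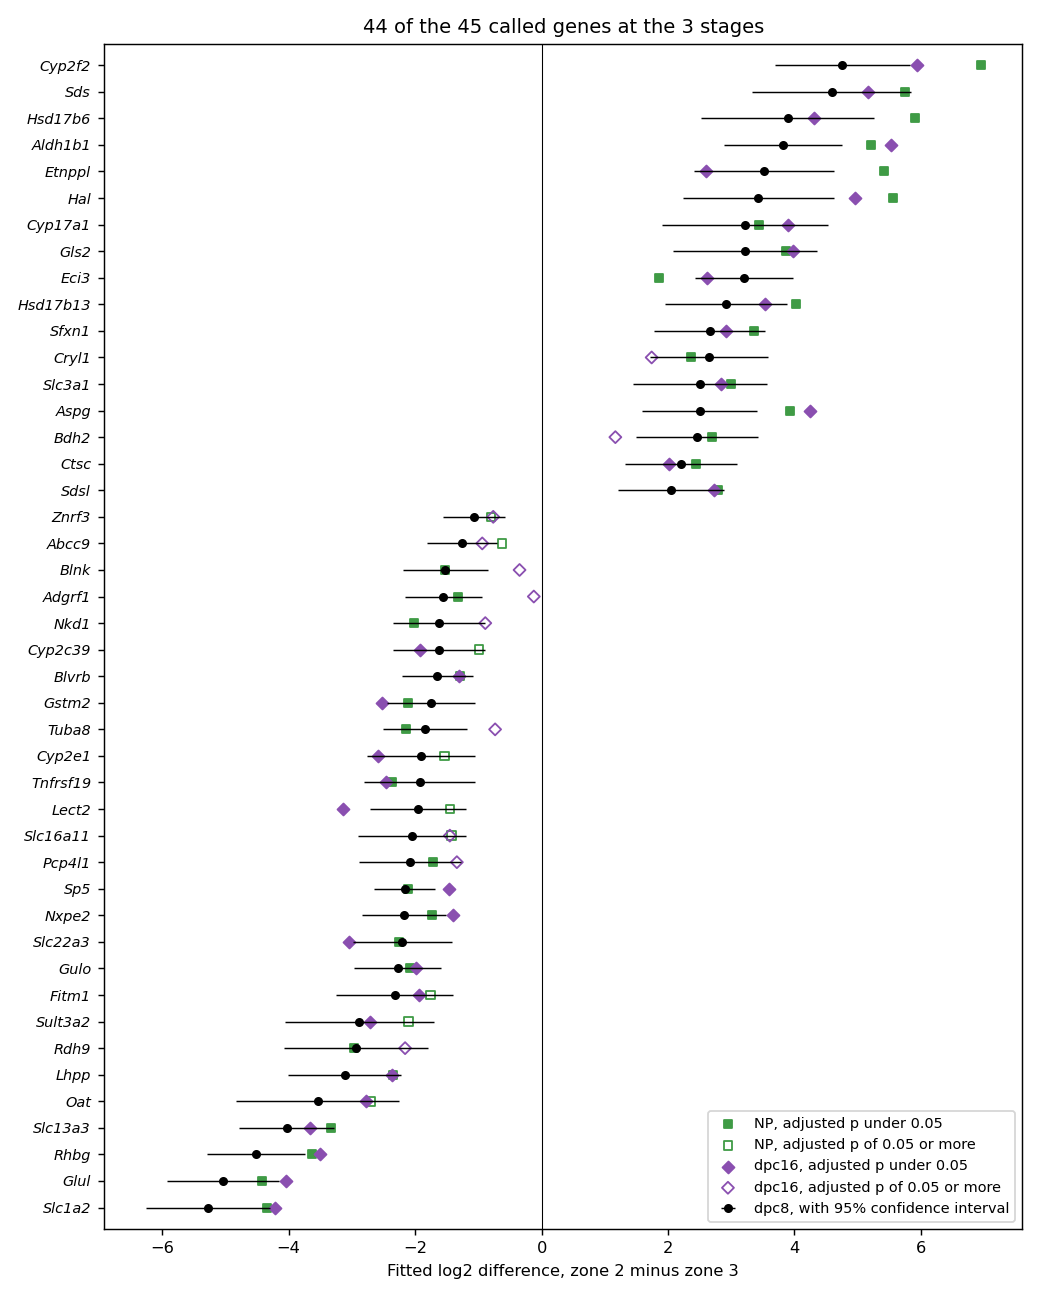
Log2 difference, zone 2 minus zone 3, of 44 of the 45 called genes at dpc8 (with 95% confidence intervals), in NP mice and at dpc16. Rows are genes, the 3 symbols are the stages, and open symbols have an adjusted p of 0.05 or more. All 44 genes lie on the same side of 0 at each stage.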

How the data were processed

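RNA from microdissected lobular zones was sequenced after ribosomal RNA depletion. The authors trimmed reads with cutadapt and mapped them to mm10 by HISAT2 2.1.0. From reads with a unique position they made the deposited FPKM of each protein-coding gene of GENCODE, using Cuffdiff (Cufflinks 2.2.1). Since FPKM keep no read counts, limma 3.58.1 in R 4.3.3 was fitted to log2(FPKM + 1). A mean was fitted to each of 9 groups (3 stages and 3 zones, 27 libraries) with an intensity trend and robust settings, sharing one estimate of the spread. Tests were two-sided with Benjamini-Hochberg adjustment over the 11141 genes and a threshold of 0.05. The steps in low FPKM values (91.86% to 96.69% of those examined lay within 0.05 of a whole step) gave the depth, and 1 read per kilobase equals 0.0367 to 0.0749 FPKM. On simulated data the procedure called 77 of 100 genes changed by 2 on the log2 scale, 22 of 100 changed by 1 and 6 of 10941 unchanged genes. The simulated noise was independent between libraries, with no outlying library and no shared deviation of same-numbered ones. The genes changed in it were not taken from the weakly expressed ones, so these shares may differ in the real data.

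The genes named are the 20 per direction with the largest change among called genes whose zones do not overlap, called members of 40 gene lists with up to 4 others per list, and 6 genes that the study names. The other called genes were added after their values were seen, and some genes that meet the rule are counted but left unnamed. The comparison and the lists were chosen with earlier results of these data known. Alternatives were another pseudocount, no filter, quantile normalization, array weights, a fit to the compared groups alone, a replicate block and leaving out each library. A fit without the 6 libraries in which 4 Y-linked genes summed to at least 5 FPKM and one with a connective tissue covariate were added once the data were known. Same-numbered dpc8 libraries of zones 2 and 3 deviated together (r = 0.38, 0.35 and 0.39 across genes), so the blocked fit stands beside results whose call it changes, although no label tells what a shared number means. The calls themselves come from the fit without a block. Gene starts and promoter sequences came from RefSeq on GRCm38.p6, which had an entry for 8869 of 11136 tested gene symbols.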

Additional observations from a re-analysis of the deposited data

Results flagged for a closer look

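One value lay outside the measurement that the comparison uses. The 4 Y-linked genes Ddx3y, Eif2s3y, Kdm5d and Uty, which a sample of a female mouse should lack, summed to 16.1 FPKM in dpc8 zone 2 replicate 2, while the 5 other libraries of the comparison had at most 0.80. The same library had the connective tissue sum of 7379 FPKM and a sum of 12.9 FPKM over a list of uterus and placenta genes, against at most 0.24 in the others. Of that list Hoxa10 was at 9.77, Hoxa11 at 1.79, Prl2c2 at 0.836 and Dio3 at 0.474 FPKM in this library. All other members, among them the placental genes Prl3d1, Prl3b1 and Tpbpa, were at 0. The part of this RNA in the differences between zones was not tested. Without this library 31 genes were called, all among the 45.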

How the results depend on the processing

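Of the 45 called genes 21 kept their call in all 15 alternatives, 11 higher in zone 2 and 10 higher in zone 3, and 0 changed direction. The replicate block called 74 genes at dpc8 (52 of them higher in zone 3), 129 in NP, 112 at dpc16 and 1 for the change between dpc8 and dpc16. It ended the call of Nkd1 and changed no other call among the 45. With array weights 108 genes were called at dpc8 (52 higher in zone 2 and 56 higher in zone 3), 60 list members, 96 genes in NP, 232 at dpc16 and 1 for the change between dpc8 and dpc16. A fit to the compared groups alone called 33 at dpc8, of which 16 were higher in zone 3, 32 in NP and 10 at dpc16. A pseudocount of 0.1 left 15 genes higher in zone 3. Without a filter 3 genes, Cox8b, Slc22a2 and Pnliprp1, passed the test of the change between dpc8 and dpc16, and with quantile normalization 1 did, Cyp2c69. Without the 6 libraries with a Y-linked sum of at least 5 FPKM 65 genes were called at dpc8, 35 of them higher in zone 2, with 106 in NP, 90 at dpc16 and 1 for the change between dpc8 and dpc16. The connective tissue covariate gave 68 at dpc8 (34 higher in zone 2), 115 in NP, 115 at dpc16 and 1 for that change. Of the genes named as not called, Lgr5, Asl, Ass1, Cps1, Uroc1, Amdhd1 and Ftcd were called in both of these added fits, and all but Cps1 also with array weights. Array weights further called Tbx3, Cyp1a2, Ccnd1, Wnt2, Rspo3, Notum, Cdh1, Ahr, Pparg, Knstrn, Nusap1, Sult3a1, Serpina7 and Elovl3. A pseudocount of 5 called Lgr5, Tbx3, Wnt2, Rspo3, Pparg and Elovl3, and quantile normalization called Lgr5, Wnt2 and Rspo3. The fit to the compared groups alone called Tbx3 and Serpina7. Leaving out the 6 libraries with Y-linked RNA also called Ahr, and the connective tissue covariate also called Cdh1 and Wnt2. The causes were not tested.

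Leaving out 1 library gave 26 to 39 called genes at dpc8, 11 to 16 higher in zone 2 and 15 to 23 higher in zone 3. The lowest total, 26, came without dpc8 zone 3 replicate 3, where 15 genes were higher in zone 3. Leaving out zone 2 replicate 2 gave 15 such genes as well, and leaving out zone 2 replicate 3 gave 18. The counts were 18 to 27 for list members, 25 to 35 for named genes, 31 to 50 in NP, 28 to 80 at dpc16, 0 for the change between dpc8 and NP and 0 to 1 for that between dpc8 and dpc16. The log2 difference of Cyp2c29, which was not called, ran from -1.18 to 0.33 when 1 library was left out, and its sign changed without dpc8 zone 2 replicate 1 (0.33) or zone 3 replicate 3 (0.11). Some genes named as not called gained a call in this way at dpc8. They were Cdh1 without zone 2 replicate 1, Ccnd1 without zone 2 replicate 3, Hsd3b5 without zone 3 replicate 2 and Wnt2 without zone 3 replicate 3. With 3 libraries a zone the simulation missed most genes that differ by 1 on the log2 scale, so a gene that was not called may still differ.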

Other observations

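Other gene groups were read in the same comparison, and 0 of their members were called by limma at an adjusted p under 0.05. With the replicate block 3 were: Elovl3 (limma adjusted p 0.175 without the block and 0.0153 with it), Serpina7 (0.36 and 0.017) and Ccnd1, given above. The lists had 0 to 4 members each at an unadjusted p under 0.05. Medians are also given without dpc8 zone 2 replicate 2 ("without it"). Of 25 tested major urinary protein genes and growth hormone targets 3 had such a p, each higher in zone 3 (2.53% of all genes tested), with a median log2 difference of -0.32 (-0.03 without it). Hsd3b5, a steroid enzyme of this list, was at 0.335, 0 and 0.691 FPKM in zone 2 and 10.7, 1.47 and 7.98 FPKM in zone 3. Elovl3, which lengthens fatty acids, was at 1.90, 2.12 and 1.65 FPKM in zone 2 and 6.04, 13.9 and 9.14 FPKM in zone 3. Neither overlapped between the zones.

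The 16 tested genes of the hypoxia response had differences of both signs, with a median of 0.04 (-0.02 without it). Egln3, an oxygen-sensing hydroxylase, had 4.59, 4.10 and 5.45 FPKM in zone 2 and 9.82, 8.84 and 11.6 FPKM in zone 3, and Car2, carbonic anhydrase 2, a log2 difference of -1.15. Ddit4, an inhibitor of mTOR signalling, had a positive difference, at 4.99, 7.58 and 3.12 FPKM in zone 2 and 0.889, 1.09 and 3.56 FPKM in zone 3, with overlap. Of 41 tested genes of complement and coagulation (median -0.14, and 0.10 without that library), C9 differed by 1.44 and C6 by -1.28. Of 29 plasma carrier proteins (median -0.30, and -0.11 without it), A1bg differed by 1.37 and Serpina7, which carries thyroxine, by -1.94. Of 30 genes of heme and iron (median -0.04, and 0.05 without it), Id1, a target of BMP signalling, differed by 1.40, and Alad, an enzyme of heme synthesis, by -0.82. Of 24 genes of oxidative stress (median -0.19, and -0.08 without it), Gclm, which acts in glutathione synthesis, differed by -0.66, and Prdx6, a peroxiredoxin, by -0.64. Among 19 glycogen genes, 26 of glucose uptake and glycolysis and 28 of fatty acid synthesis the medians were -0.08, 0.20 and -0.10, and -0.04, 0.15 and 0.16 without that library.

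With and without dpc8 zone 2 replicate 2, the remaining lists had medians of 0.01 (0.25 without it) for 32 acute phase genes and protease inhibitors, 0.25 (0.07 without it) for 15 G1 cyclins and inhibitors of cyclin-dependent kinases, -0.42 (-0.28 without it) for 5 erythroid genes and -0.67 (-0.50 without it) for 3 pancreas and gut genes. Over all genes tested the median was 0.00.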
